A study of Mus musculus with 5 samples.

Results

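CD4 T cells of the bone marrow were examined as barcodes that carried T cell receptor RNA and *Cd4*, and no RNA of CD8, plasmacytoid dendritic or monocytic markers. They were chosen from measured counts of unique molecular identifiers (UMIs, 1 per captured RNA molecule). A barcode needed at least 500 UMIs with at most 10% from mitochondrial genes, a summed count of *Cd3d*, *Cd3e*, *Cd3g* and *Trbc2* of at least 2, and at least 1 *Cd4* UMI. *Cd8a* and *Cd8b1*, *Siglech* and *Csf1r* had to be at 0. Of 29679 barcodes that passed the limits on UMIs and mitochondrial share, 68 were members.

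The marrow came from 5 C57BL/6J mice, 8 weeks old per the study's methods and not irradiated. Each had received 1000 BCR-ABL1 pre-B ALL cells through the tail vein, the mouse of day 0 included, so no mouse was free of the transplant. One mouse was killed at once (day 0) and 1 each at days 3, 6, 9 and 12, and each gave 1 droplet-based library of flushed and enzyme-digested marrow from femurs and tibias. With 1 mouse per day, a difference between days cannot be told apart from a difference between mice or libraries. No test between days was made. Intervals on single libraries, and on UMIs or cells summed over the libraries, are 95% intervals that cover counting error only and not differences between mice.

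CD4 T cells recognize peptides on MHC class II molecules through the T cell receptor, with CD4 as the co-receptor that brings the kinase Lck to the complex. Naive cells express *Ccr7*, a receptor that directs them to lymph nodes. Effector memory cells lose it, and antigen-experienced cells gain adhesion molecules such as integrin β1, and the bone marrow is known as a site where memory CD4 T cells reside. Regulatory T cells, which restrain other T cells through the transcription factor FOXP3, are also known to be frequent among marrow CD4 T cells.

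The libraries held 33425695 to 43554233 UMIs in all barcodes and 4870 to 6944 passing barcodes each. CD4 T cells had median UMI counts of 1491 at day 0, 2610 at day 3, 3583.5 at day 6, 2502.5 at day 9 and 2054 at day 12, with summed counts of 12061 (day 3) to 89709 (day 6). Among all passing barcodes, 997 (3.36%) shared a barcode sequence with another library. This held for 2 of the 68 CD4 T cells, and for neither was the other barcode a CD4 T cell.

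CD4 T cells were rare at every day. Day 0 had 16 members, or 0.256% of passing barcodes (exact binomial interval 0.146 to 0.415%). Day 3 had 5 members, or 0.103% (0.0333 to 0.239%). Day 6 had 22 members, or 0.364% (0.228 to 0.551%). Day 9 had 18 members, or 0.259% (0.154 to 0.409%). On day 12 the 7 members were 0.126% (0.0506 to 0.259%). The shares at days 0, 6 and 9 lay within each other's range of counting error, and the lowest shares were those of days 3 and 12. Neutrophils were 39.0, 49.8, 42.2, 47.3 and 65.0% of the passing barcodes in the order of days. Without neutrophil-rich barcodes (at least 300 UMIs of *S100a8* and *S100a9*), left out of members and denominator after the data were seen, the shares of CD4 T cells were 0.452, 0.244, 0.639, 0.548 and 0.483%, so that day 12 was no longer below day 0.

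CD8 T cells, chosen by the same receptor sum with at least 1 UMI of *Cd8a* or *Cd8b1* and no *Cd4* UMI, numbered 356, 77, 142, 139 and 70 in the order of days. CD4 T cells were thus 4.3% of CD4 and CD8 T cells at day 0 (2.48 to 6.89%), 6.1% at day 3 (2.01 to 13.7%), 13.4% at day 6 (8.6 to 19.6%), 11.5% at day 9 (6.94 to 17.5%) and 9.09% at day 12 (3.73 to 17.8%). The intervals of days 6 and 9 lay above that of day 0, and those of days 3 and 12 overlapped it. Median UMI counts of CD8 T cells were 2346.5, 2953, 3065, 2943 and 2566 in the order of days. CD4 T cells were thus the shallower at days 0, 3, 9 and 12 and the deeper at day 6 only. This share depends on how readily each co-receptor is detected and is not the ratio of the cells in the marrow.

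**Figure D1:**
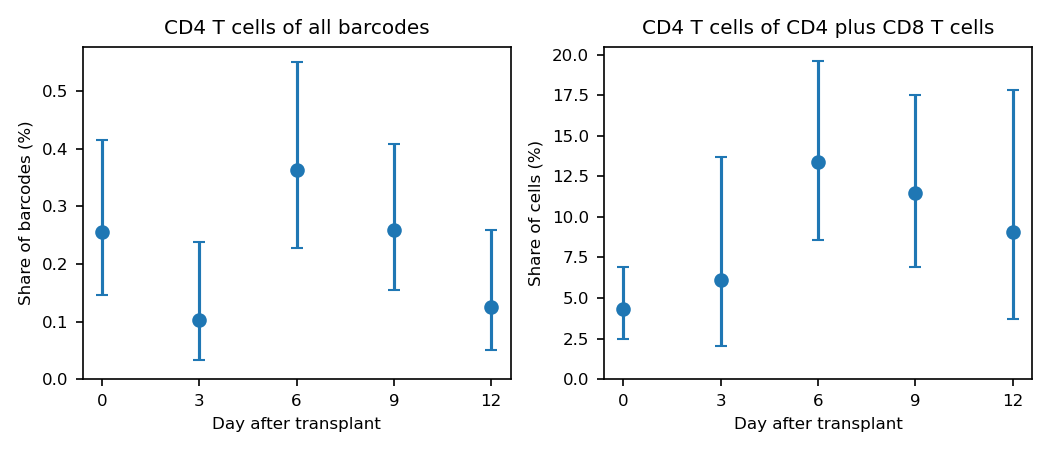
Share of CD4 T cells among all passing barcodes (left, %) and among CD4 plus CD8 T cells (right, %) by day after transplant; each point is 1 library of 1 mouse and bars are 95% exact binomial intervals. On the left days 3 and 12 are lowest, at 0.103% and 0.126% (0.244% and 0.483% without neutrophil-rich barcodes, where day 0 is at 0.452%), and on the right day 0 is lowest, at 4.3%.

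*Cd4* RNA was sparse. In 58 of the 68 cells the rule rested on a single *Cd4* UMI, 10 cells had 2 or more, and the highest count was 4. A further 1197 T cells carried neither co-receptor, and 4 carried both. Among T cells without a CD8 UMI, 68 of 1265 (5.38%) had a *Cd4* UMI, whereas 4 of 788 T cells with a CD8 UMI (0.508%), 24 of 3540 B cells (0.678%) and 42 of 14320 neutrophils (0.293%) had one. At the rate of T cells with a CD8 UMI, 6.42 of the 1265 would carry a *Cd4* UMI from free RNA or doublets, and at the rate of B cells 8.58 would. B cells here were barcodes with at least 2 UMIs of *Cd79a* and *Cd79b*, no receptor UMI and under 300 UMIs of *S100a8* and *S100a9*, and neutrophils those with at least 300 of the latter and no receptor UMI. Median UMI counts were 2416 to 3608 over the libraries for T cells without a CD8 UMI, 1693 to 3088.5 for B cells and 3355 to 3936 for neutrophils.

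The receptor genes, which chose the cells, are given as a description. *Cd3d* was seen in 60 of 68 cells, *Cd3g* in 57, *Cd3e* in 45 and *Trbc2* in 61, and 36 cells had all 3 CD3 genes. *Trac*, the α chain constant gene that the rule did not use, was seen in 46 of 68 cells (67.6%) against 27 of 3540 B cells (0.763%). Either *Trac* or *Trbc1* was seen in 56 cells (82.4%). *Trbc1* and *Trbc2* are near-identical, and reads may have been split between them. *Trac* thus stood far above its share in B cells. These were chosen with no receptor UMI, which leaves out B cells with stray T cell RNA, so the contrast is a description only. Variable genes gave only 16 UMIs in 9 cells, over 10 genes, so that clonality could not be read.

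At the threshold, 5 cells had a receptor sum of exactly 2 and 2 of them had *Trac* or *Trbc1*. A further 10 barcodes met every condition but had a sum of 1. Of these 10, 1 had *Trac* or *Trbc1* and 4 had at least 300 UMIs of *S100a8* and *S100a9*. The limit on mitochondrial UMIs removed 3 barcodes that otherwise met the rule.

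RNA of other cell types was present to different degrees. The 10 neutrophil genes summed to 260 to 756 per 10000 UMIs over the libraries in CD4 T cells and to 654 to 1120 in CD8 T cells. Among the CD4 T cells, 5 (1 at day 0, 3 at day 6, 1 at day 9) held 891 to 1798 UMIs of *S100a8* and *S100a9*, and the other 63 held 14 to 132. Genes of B cells summed to 0.502 to 9.36 per 10000 against 124 to 271 in B cells. Erythroid genes reached at most 1.41 and plasma cell genes at most 1.61 per 10000. Genes of plasmacytoid dendritic cells, one of which (*Bst2*) is also on the interferon list, summed to 9.12 per 10000 at day 3, with 81.8% of those UMIs in 1 cell, and to 0.602 to 2.22 at the other days. The shares and the comparison with CD8 T cells were also computed without such barcodes.

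Outside the genes named as ribosomal protein (*Rpl*, *Rps*) or mitochondrial genes, *Malat1*, a nuclear non-coding RNA, was highest at a mean of 288 UMIs per 10000 over the libraries. *Tmsb4x*, which binds actin monomers, followed among genes not typical of neutrophils at 196, with *Tmsb10* at 64.0, *Fau*, whose product also yields a ribosomal protein, at 63.3, *Actb* at 61.1, *B2m* at 57.9 and *Tpt1* at 47.5. The neutrophil genes *S100a8* (211), *S100a9* (173) and *Retnlg* (48.7) were also among the 10 highest. Among these, *B2m*, the light chain of MHC class I, had a mean of 33.7 in CD8 T cells, and *S100a8* had 390.

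**Figure D2:**
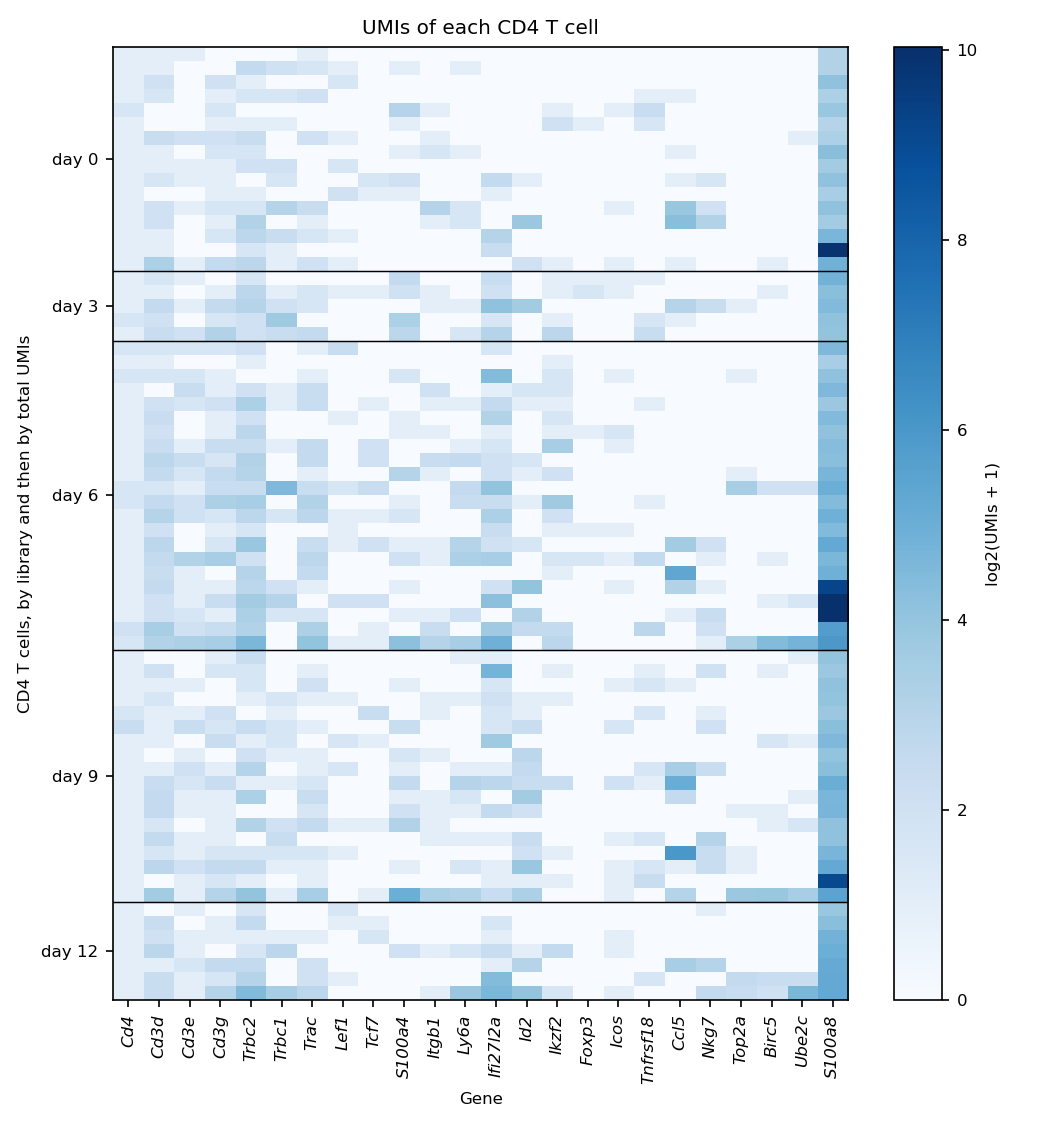
UMIs of 24 genes (columns) in each of the 68 CD4 T cells (rows, by library and within it by total UMIs), colored as log2(UMIs + 1). *Cd4* is at 1 UMI in 58 cells, *Ccl5* is at 5 or more UMIs in 12 cells, the 3 cell cycle genes are concentrated in few cells, and *S100a8* is far higher in 5 cells than in the others.

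CD4 T cells were next set against CD8 T cells of the same mice, to show what sets the rare CD4 T cells apart from the more frequent T cells of this marrow. Counts were summed per class and library and tested with edgeR's quasi-likelihood test with the library as a block. In CD4 T cells 47 genes were overexpressed and 128 underexpressed among 1413 tested, or 3.33% and 9.06% of them, at an adjusted p below 0.05. Genes of adhesion, of antigen-experienced cells and of regulatory T cells were higher in CD4 T cells, and genes of the cytotoxic lineage were lower. The genes that defined the classes are left out of these counts.

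The balance of directions depended on scaling. With TMM factors (trimmed mean of M values) the median logFC of all tested genes was 0.05, with upper-quartile scaling −0.11, where 31 genes were overexpressed and 153 underexpressed, and with scaling to total UMIs alone 0.40, where 167 were overexpressed and 52 underexpressed. With no filter on low counts the median was −0.60, with 31 overexpressed and 244 underexpressed. All 20 genes named for their size of change kept their direction under every alternative that tested them. Levels below are UMIs per 10000 total UMIs of the class, and logFC values are on the TMM scale. The SE given with a logFC is its absolute value divided by the square root of the test's F statistic. It is not the spread between the libraries.

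*Ly6a*, an interferon-inducible surface protein also called Sca-1, stood at 1.81, 2.49, 5.02, 4.84 and 8.03 UMIs per 10000 in CD4 T cells in the order of days. In CD8 T cells it was at 0.281 to 0.592 in every library, so that the classes did not overlap. Its logFC was 3.15 ± 0.32 (SE, 5 libraries; edgeR adjusted p = 1.35e-07). Of its 16 UMIs at day 12, 14 were in 1 cell. It was seen in 38.2% of CD4 T cells, 7.4% of CD8 T cells and 17.5% of B cells, and after thinning each cell to 1000 UMIs in 15.2%, 3.38% and 11.4%.

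*S100a4*, a calcium-binding protein of memory T cells, stood at 4.22, 19.1, 4.12, 11.5 and 1.51 per 10000 in CD4 T cells and at 0.374 to 1.2 in CD8 T cells. Its logFC was 3.12 ± 0.27 (SE, 5 libraries; edgeR adjusted p = 9.42e-09). The CD4 T cell with the most of its UMIs held 31 at day 9 and 17 at day 6, and the next cell 8 and 7. *S100a4* was seen in 32 of 68 CD4 T cells (47.1%) and 90 of 784 CD8 T cells (11.5%), and after thinning each cell to 1000 UMIs in 19 of 66 (28.8%) and 40 of 769 (5.2%). B cells gave 17.7% before thinning and 9.19% after, so that the share in CD4 T cells stood above both.

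*Itgb1*, the integrin β1 chain that binds matrix and VCAM1, stood at 3.61, 1.66, 2.68, 3.22 and 1.0 per 10000 in CD4 T cells and at 0.279 to 0.462 in CD8 T cells. The logFC was 2.67 ± 0.30 (SE, 5 libraries; edgeR adjusted p = 9e-07). At day 9, 1 CD4 T cell held 9 *Itgb1* UMIs and no other held more than 1. *Itgal*, the α chain of LFA-1, was also higher (logFC = 0.91, edgeR adjusted p = 0.0496), but the call was lost in 10 of 14 other fits. These were the homing genes called higher, of 8 tested.

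Of 20 genes of memory and activation, 14 were tested, 5 were higher in CD4 T cells (*S100a4*, *Itgb1*, *Id2*, *Lgals1*, *S100a10*) and *Ccl5* was lower, with a median logFC of 0.62. *Id2*, which restrains E protein transcription factors, stood at 5.12, 9.12, 4.12, 13.3 and 11.5 per 10000 against 1.24 to 2.23 in CD8 T cells (logFC = 1.90 ± 0.27 SE, edgeR adjusted p = 2.3e-05). Its UMIs were uneven among the CD4 T cells. At day 3 all 11 were in 1 cell, and at day 0 the highest cell held 13 and the next 3. At day 12, 2 cells held 15 and 7 and the next held 1. The highest cells at days 6 and 9 held 15 and 14, and the next 8 and 11. The galectin gene *Lgals1* had a logFC of 1.28 (edgeR adjusted p = 4.02e-05) and *S100a10* one of 1.21, and both calls were lost with no filter on low counts. *Cxcr3* and *Cxcr6*, chemokine receptors of effector and memory cells, were not among the tested genes. *Cxcr3* was seen in 17 of the 68 cells against 0.791% of B cells, and *Cxcr6* in 16.2% against 0.113%.

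Of 14 genes of regulatory T cells, 3 passed the filter on low counts, and *Ikzf2* and *Tnfrsf18* were higher in CD4 T cells. *Ikzf2*, which encodes Helios, stood at 1.51, 7.46, 5.8, 1.61 and 3.51 per 10000 against 0.281 to 1.11 in CD8 T cells (logFC = 2.11 ± 0.33 SE, edgeR adjusted p = 5.29e-05). *Tnfrsf18*, which encodes GITR, had a logFC of 1.81 ± 0.35 (SE, edgeR adjusted p = 0.000561). The list summed to 8.13, 33.2, 21.7, 12.5 and 9.03 per 10000 in CD4 T cells and to 2.0 to 2.79 in CD8 T cells, with days 3 and 6 highest.

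*Foxp3* itself was seen in 6 of the 68 cells, 1 at day 0, 2 at day 3, 3 at day 6 and none at days 9 and 12. All 6 also had *Ikzf2*, and 23 cells had *Ikzf2* without *Foxp3*. *Foxp3* was seen in 8.82% of CD4 T cells, 0.383% of CD8 T cells and 0.0282% of B cells. Summed over the libraries it had 8 UMIs in each of the CD4 and CD8 classes, which is a ratio of 12.5 per UMI total (interval 4.1 to 38.3). At days 9 and 12 it was not detectable at this depth, and the exact upper bounds on the share of cells with a *Foxp3* UMI were 18.5% (0 of 18) and 41.0% (0 of 7). A comparison of *Foxp3*-detected with *Foxp3*-undetected cells was not run, as too few libraries had 5 cells on each side.

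*Icos*, a co-stimulatory receptor of activated and follicular helper T cells, stood at 0.903, 1.66, 0.78, 2.01 and 1.51 per 10000 against 0.165 to 0.421 in CD8 T cells (logFC = 2.17 ± 0.37 SE, edgeR adjusted p = 0.000133). *Ass1*, which encodes argininosuccinate synthase, had a logFC of 2.66 (edgeR adjusted p = 1.51e-05), and the non-coding *Lockd* one of 1.80 (edgeR adjusted p = 0.000756). *Izumo1r*, which encodes folate receptor 4 of CD4 T cells, was not among the tested genes and was seen in 27 of 68 CD4 T cells, 32 of 784 CD8 T cells and 31 of 3540 B cells. Genes of Th1, Th2 and Th17 cells were too low to be tested. Their lists summed to 1.51 to 6.45, 0 to 4.97 and 1.51 to 3.63 per 10000 over the libraries, and inhibitory receptors to 0 to 2.49. In CD8 T cells these sums were 1.05 to 1.64, 0.105 to 0.327, 0.11 to 0.281 and 0.327 to 0.836. CD4 T cells were the higher in 4, 4, 5 and 4 of 5 libraries, with 0 to 32 UMIs per list and library.

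Of the T cell receptor complex outside the rule, *Trac* was higher in CD4 T cells (logFC = 0.78, edgeR adjusted p = 0.00675), at 5.72 to 9.03 per 10000 against 2.79 to 4.6. The call was lost without day 6, without day 9 and with no filter on low counts (logFC = 0.67, 0.66 and 0.17). Of 16 genes of receptor signaling, 11 were tested, and *Cd5*, a negative regulator of receptor signals, and *Fyn*, a Src family kinase, were higher. Their edgeR adjusted p values were 0.0472 and 0.0475. The call of *Cd5* was lost in 8 of 10 other fits and that of *Fyn* in 8 of 14. *Lck*, the kinase that CD4 carries, had a logFC of −0.40 (edgeR adjusted p = 0.451).

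Genes of the cytotoxic lineage were lower in CD4 T cells, with 4 of 5 tested genes past the threshold (*Runx3*, *Dapl1*, *Ccl5*, *Nkg7*) and none higher. That of *Nkg7* (logFC = −1.15) was lost with scaling to total UMIs, without day 6 and thinned. *Runx3*, the transcription factor that silences *Cd4* in cytotoxic T cells, had no UMI at days 0, 3, 6 and 12 and 2 UMIs at day 9 in CD4 T cells, and stood at 1.05 to 1.4 per 10000 in CD8 T cells (edgeR adjusted p = 0.00023). Summed over the libraries it had 2 UMIs in CD4 and 298 in CD8 T cells, a ratio of 0.084 (interval 0.0101 to 0.306). *Klrd1*, an NK receptor chain, was lower with a logFC of −2.45 ± 0.46 (SE, edgeR adjusted p = 0.000438). *Zbtb7b*, which encodes the helper lineage factor ThPOK, was too low to be tested, with 7 UMIs in 7 CD4 T cells and 21 in CD8 T cells (ratio 4.17, interval 1.5 to 10.2).

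*Ccl5*, a chemokine of cytotoxic and memory cells, was lower on summed counts (logFC = −1.53, edgeR adjusted p = 2.01e-05), with 10.8, 6.63, 6.69, 24.4 and 5.02 per 10000 against 21.1 to 27.2 in CD8 T cells. It was uneven among the CD4 T cells. It was seen in 20 of 68 cells, 12 had 5 or more UMIs and 1 cell at day 9 had 64 of the 121 UMIs of that library. Of the 12 cells, 8 also had *Nkg7* and none had *Foxp3*. B cells had a *Ccl5* UMI in 11.5% of cells.

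Of 9 tested genes of naive and recirculating cells, none was higher in CD4 T cells. *Ccr7* had a logFC of −1.30 (edgeR adjusted p = 0.0563), and without neutrophil-rich barcodes it was lower (logFC = −1.25, edgeR adjusted p = 0.0366). *Lef1* had a logFC of −0.66 (edgeR adjusted p = 0.163). The median logFC of the list was −0.66 with TMM and −0.32 with scaling to total UMIs. *Lef1* was seen in 24 of 68 cells and *Tcf7* in 18, and *S100a4* or *Itgb1* in 44. *Lef1* and *S100a4* were seen together in 9. *Ccr7* was seen in 9 cells (13.2%), against 27.0% of CD8 T cells and 16.2% of B cells, so that its share in CD4 T cells was not above that of B cells. For *Ccr7*, too, detected and undetected cells were not compared, for lack of cells. *Bcl2*, an inhibitor of apoptosis, was lower (logFC = −1.09, edgeR adjusted p = 0.019), a call lost in 5 of 15 other fits.

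Ribosomal protein genes were lower in CD4 T cells, with 79 of 82 tested genes past the threshold and a median logFC of −0.66. With scaling to total UMIs 32 of 82 were lower, none was higher and their median was −0.28, against 0.40 for all genes. Their sum was 2930 to 3250 per 10000 over the libraries in CD4 T cells and 3860 to 4200 in CD8 T cells, below CD8 in 5 of 5 libraries. Of 12 tested mitochondrial genes 7 were lower, but none was with scaling to total UMIs.

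The neutrophil genes *Camp*, *Ngp* and *Ltf* were among the 10 genes furthest below CD8 T cells, with a logFC of −2.28 for *Camp*. Without barcodes of at least 300 *S100a8* and *S100a9* UMIs in either class, the logFC of *Camp* was −0.30 (edgeR adjusted p = 0.0933), of *Ngp* −0.02 (edgeR adjusted p = 0.952) and of *Ltf* −0.21 (edgeR adjusted p = 0.729), and no tested gene of the neutrophil list differed. *Chil3*, also a neutrophil gene, went from −2.46 to −0.82 (edgeR adjusted p = 0.0548). In that fit, of all 1152 genes tested, 80 were higher and 131 lower in CD4 T cells. Of the 175 differences, 153 were called again in the same direction. There 8 of 13 memory and activation genes were higher and 2 lower, 4 of 17 immediate-early genes were higher and 2 of 6 glycolysis genes were higher. The MHC class II chaperone *Cd74* (logFC = −2.00), *Dnajc15* (−1.96) and the phagocyte oxidase gene *Cybb* (−1.67) were also among these 10. The B cell list, which holds *Cd74*, summed to 3.41 to 18.6 per 10000 in CD8 T cells, and its part in that difference was not tested. Without day 6 *Cd74* and *Cybb* were not called (logFC = −1.39 and −1.33, edgeR adjusted p = 0.117 and 0.121).

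**Figure D3:**
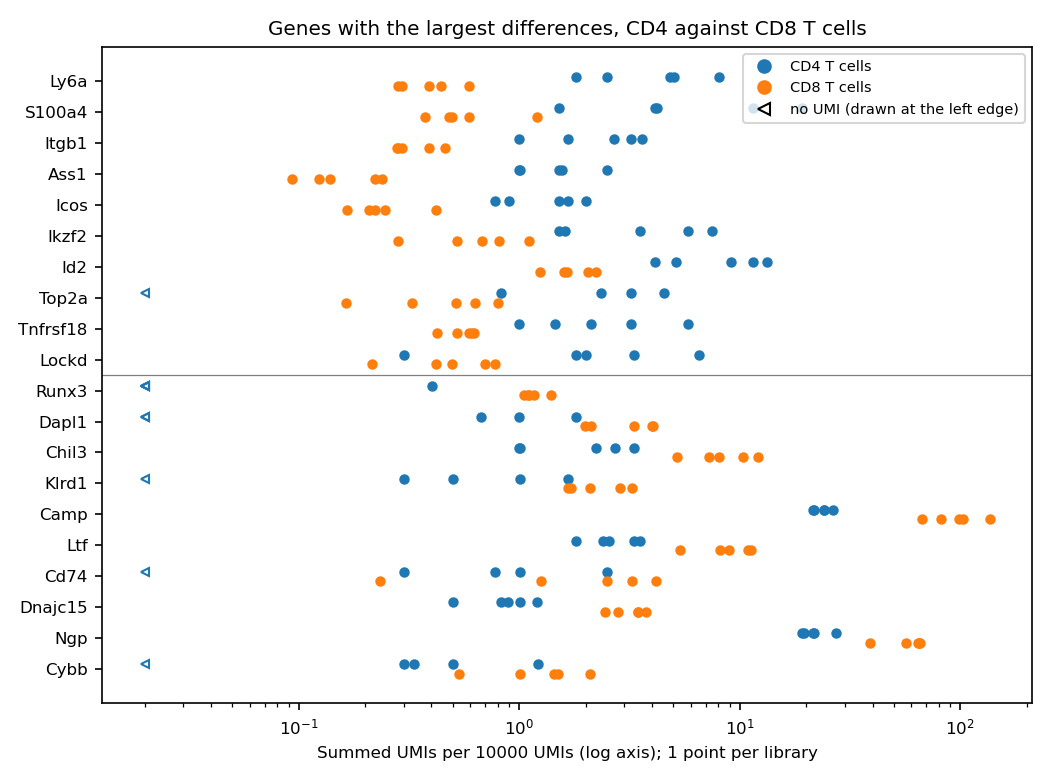
Summed UMIs per 10000 UMIs (log axis) of the 10 genes furthest above (top) and the 10 furthest below (bottom) in CD4 against CD8 T cells; each point is 1 library, and open triangles at the left edge mark no UMI. Of these genes *Top2a*, *Lockd*, *Cd74* and *Cybb* overlap between the classes, and the others do not, apart from *Klrd1*. All were chosen by the size of their difference, and overlap over all tested genes was not counted. The lowest *S100a4* value in CD4 T cells, 1.51 at day 12 against at most 1.2 in CD8 T cells, is 3 UMIs in 1 cell. *Klrd1* meets at 1.66, its highest value in CD4 and its lowest in CD8 T cells.

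Interferon-stimulated genes and MHC class I genes were partly higher. Of 24 interferon-stimulated genes 6 were tested, and *Ly6a* and *Ifi27l2a* were higher. *Ifi27l2a* stood at 5.12, 26.5, 16.8, 13.5 and 25.6 per 10000 against 3.13 to 5.82 in CD8 T cells (logFC = 1.65 ± 0.23 SE, edgeR adjusted p = 1.74e-05), and it was at its lowest at day 0, within the range of CD8 T cells. *Bst2* and *Ifi203* had logFC values of −0.01 and 0.01, and neither passed. Of 8 tested class I genes *H2-K1*, a class I heavy chain (logFC = 0.58, edgeR adjusted p = 0.00759), and *Psmb9*, an interferon-inducible proteasome subunit (logFC = 0.84, edgeR adjusted p = 0.0339), were higher. Neither was called with upper-quartile scaling (logFC = 0.42 and 0.68) or with no filter on low counts, where *H2-K1* had a logFC of −0.05 and *Psmb9* of 0.25. *Psmb9* was also lost in 4 of the 5 fits that left out a library. *B2m* had a logFC of 0.39 (edgeR adjusted p = 0.0504).

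*H2-K1* and *Psmb9* lie on the same chromosome, and their promoters are shown because both genes were higher in CD4 T cells and are known to respond to interferon. The 300 bases run from 250 before to 50 after the start (RefSeq, GRCm38.p6, both genes on the minus strand, written 5′ to 3′ of the gene). Capitals mark a match to GAANNGAAA, a core of interferon response elements, searched on both strands. *H2-K1* has a pair of entries in the table, and the first is shown, chr17:34000298-34000597. *Psmb9* is chr17:34187281-34187580.
H2-K1: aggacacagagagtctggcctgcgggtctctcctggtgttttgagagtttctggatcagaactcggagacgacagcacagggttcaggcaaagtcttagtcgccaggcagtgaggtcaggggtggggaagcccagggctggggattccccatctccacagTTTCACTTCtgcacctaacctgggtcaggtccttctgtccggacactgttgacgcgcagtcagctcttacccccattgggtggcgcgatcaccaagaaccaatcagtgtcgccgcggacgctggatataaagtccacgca
Psmb9: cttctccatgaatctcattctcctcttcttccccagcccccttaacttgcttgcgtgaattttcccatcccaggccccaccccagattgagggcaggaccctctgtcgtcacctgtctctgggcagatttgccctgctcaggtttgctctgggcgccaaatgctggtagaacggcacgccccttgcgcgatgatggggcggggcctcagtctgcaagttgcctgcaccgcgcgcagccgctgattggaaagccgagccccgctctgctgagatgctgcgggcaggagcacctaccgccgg
The match in *H2-K1* is on the strand opposite to the one written. These letters are not in the window of *Psmb9*. They are in 2469 of 32851 promoters of the same length (7.52%). The motif and genes were chosen after the values were seen, and the match is a description only.

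Of 29 immediate-early genes 17 were tested and *Junb* and *Ppp1r15a* were higher. *Junb*, a member of the AP-1 transcription factors, stood at 5.44 to 9.64 per 10000 against 1.81 to 4.44 (logFC = 1.03, edgeR adjusted p = 0.000326), and its call was lost with no filter on low counts. That of *Ppp1r15a* was lost in 5 of 12 other fits. For *Fos*, *Fosb*, *Jund* and *Jun* the logFC values were 0.43, 0.55, 0.33 and −0.23 with edgeR adjusted p values of 0.308 to 0.77. No heat shock or glycolysis gene was called (6 and 7 tested), but without neutrophil-rich barcodes the glycolysis genes *Pkm* (logFC = 0.87, edgeR adjusted p = 0.0157) and *Gapdh* (logFC = 0.68, edgeR adjusted p = 0.0395) were higher. *Mt1* had 8 UMIs in 5 of the CD4 T cells and *Mt2* none. *Cxcr4*, which holds cells in the marrow through CXCL12, and *S1pr1*, which guides exit, were each seen in 17 of the 68 cells. *Xist* was seen in 61 of 68 cells, and *Ddx3y*, a gene of the Y chromosome, had no UMI in any.

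Proliferation was concentrated in few cells. Of 12 proliferation genes 7 were tested, and *Top2a*, *Birc5* and *Stmn1* were higher in CD4 T cells, with none lower. The call of *Stmn1* was lost in 4 of 15 other fits and that of *Birc5* in 2 of 13. *Top2a*, a topoisomerase of dividing cells, had a logFC of 1.89 ± 0.37 (SE, edgeR adjusted p = 0.000638) and was higher in 4 of 5 libraries, with no UMI at day 0. Over 8 cell cycle genes (*Mki67*, *Top2a*, *Birc5*, *Ube2c*, *Cdk1*, *Ccnb2*, *Ccna2*, *Hist1h2ap*) 5 cells had 29 to 120 UMIs and the other 63 had at most 5. Of the 5 cells, 2 were at day 6, 1 at day 9 and 2 at day 12. They held 63.7%, 59.4% and 90.2% of the UMIs of the proliferation list in those libraries. The list summed to 16.9, 33.2, 58.3, 74.9 and 103 per 10000 in the order of days. In CD8 T cells it summed to 18.3, 33.7, 29.3, 35.0 and 25.3, also lowest at day 0. CD4 T cells were thus the higher in 3 of 5 libraries. Without the 5 cells, a choice made after the values were seen, the sums in CD4 T cells at days 6, 9 and 12 were 24.9, 35.1 and 21.6.

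The later days were finally set against day 0 within the CD4 T cells, with genes counted as past 2-fold where the log2 ratio of levels per 10000 (plus 0.1) went beyond 1 and the mean of both levels was at least 1. At day 3, 38.3% of 1294 genes were past 2-fold, at day 6 21.5% of 1149, at day 9 24.8% of 1225 and at day 12 38.8% of 1254. The 2 libraries with the fewest CD4 T cells had the highest shares, and a level of 1 per 10000 is about 1 UMI at day 3. These are comparisons of single libraries that all share day 0, and lists are given below by summed counts.

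Interferon-stimulated genes summed to 16.6 per 10000 at day 0 (12.5 to 21.6), 59.7 at day 3, 33.4 at day 6, 30.0 at day 9 and 43.6 at day 12 in CD4 T cells. The ratios to day 0 were 3.6 (interval 2.5 to 5.22), 2.02 (1.51 to 2.74), 1.81 (1.32 to 2.52) and 2.64 (1.86 to 3.76). Much of this lay in few genes. *Ifi27l2a* gave 17, 32, 151, 67 and 51 of the list's 55, 72, 300, 149 and 87 UMIs in the order of days. *Ly6a*, also on the list, stood at 1.81, 2.49, 5.02, 4.84 and 8.03 per 10000. The list was not summed without these genes. In CD8 T cells of the same libraries the list stood at 13.2 at day 0 and at ratios of 1.1, 0.897, 1.27 and 0.874. One cell held 55.6% of the list's UMIs at day 3 and 1 cell 55.2% at day 12, whereas at days 6 and 9 no cell held more than 16.7% and 20.8%. Of the list's genes past the level filter, 8 of 11 were past 2-fold higher at day 3, 3 of 6 at day 6, 4 of 5 at day 9 and 2 of 4 at day 12, beside 25.6, 9.92, 12.8 and 23.5% of all genes past the filter. Past 2-fold lower were 0, 1, 0 and 1 of the list's genes, beside 12.8, 11.6, 12.0 and 15.3% of all genes past the filter. In the same order of days the median log2 ratio of the list's genes past the filter was 2.60, 1.03, 1.38 and 0.92. Over all genes past the filter it was 0.282, −0.023, 0.005 and 0.148. *Ifi27l2a* was past 2-fold higher at each later day, with 17 UMIs at day 0, spread over 4 of 16 cells, and 151 UMIs at day 6, spread over 19 of 22 cells. After thinning, 4 of the 14 remaining day 0 cells and 15 of the 22 day 6 cells had it.

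Naive and recirculating genes were highest at day 0, at 28.3 per 10000, and stood at 14.9, 15.4, 15.7 and 20.6 later. The ratios were 0.527 (0.3 to 0.879), 0.543 (0.415 to 0.714), 0.555 (0.406 to 0.758) and 0.727 (0.491 to 1.06), so that the interval of day 12 held 1. Of the list's genes past the level filter, 4 of 7, 5 of 8, 3 of 8 and 2 of 8 were past 2-fold lower and 1, 1, 0 and 2 past 2-fold higher. Of all genes past the filter 12.8, 11.6, 12.0 and 15.3% were past 2-fold lower. At day 12 their median log2 ratio was 0.68, opposite in sign to the summed list. *Klf2*, a transcription factor that maintains *S1pr1*, was past 2-fold lower at each later day, at 14.2 per 10000 at day 0 and 3.32, 5.02, 4.63 and 3.51 later. One cell held 19 of its 47 UMIs at day 0. In CD8 T cells the list was also highest at day 0, at 25.3, with ratios of 0.692 to 0.831 (0.755, 0.831, 0.692 and 0.751).

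Memory and activation genes summed to 103, 172, 120, 153 and 95.3 per 10000 in CD4 T cells in the order of days. The highest were days 3 and 9, where 1 cell each held 32.4% and 19.7% of the list's UMIs. In CD8 T cells the list summed to 69.5, 83.2, 72.9, 94.3 and 82.6, also highest at days 3 and 9. MHC class I genes stood at 213 at day 3 and 102 to 121 at the other days, and the 5 cells of day 3 had a ratio of 2.07 (1.75 to 2.44). Immediate-early genes stood at 63.5 at day 0 and 47.9 to 56.9 later. Their ratios were 0.755 to 0.895, and only the intervals of days 9 and 12 lay below 1. In the same libraries the ratios of this list were 0.654, 0.706, 0.664 and 0.901 in CD8 T cells. In B cells they were 0.307, 0.579, 0.489 and 0.649, so that the lower sums were not particular to CD4 T cells.

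In all, 42 genes were past 2-fold in the same direction at each later day. Among those higher later were *Ly6c2*, *H2afz*, *Vim*, *Cd48* and *Izumo1r*, and among those lower *Klf2*, *Itm2a*, *Txnip* and *Asprv1*. *Itm2a*, a membrane protein of T cells, stood at 4.52 per 10000 at day 0 (15 UMIs) and at 0.829, 0.334, 0.201 and 0 later, and in CD8 T cells at 0.462 and 0.239 to 0.418. *H2afz*, a histone variant, stood at 6.62 at day 0 and at 14.9 to 21.2 later. As all 42 share the 16 cells of day 0, the same direction at the later days is no independent support.

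Many of the largest differences of single days rested on few UMIs or cells. At day 6 the highest log2 ratio was that of *Hist1h2ap* with 33 UMIs in 3 cells against 0 at day 0, with *Tnfrsf4*, which encodes OX40, at 34 UMIs in 6 cells against 1. *Stra13* and *Tpm4* were spread wider, with 20 UMIs in 10 of 22 cells and 19 UMIs in 8 cells against 0. At day 9 *Hist1h2ap* had 65 UMIs, all in 1 cell, and *Ccr10* had 20, also in 1 cell. At day 12 *Ube2c* had 27 UMIs in 2 cells against 1. At day 3 *Os9*, *Vamp5*, *Jtb* and *Phc3* each had 4 UMIs against 0, and *Nop10* had 0 against 16, *Lat* and *Bcl2* 0 against 13.

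**Figure D4:**
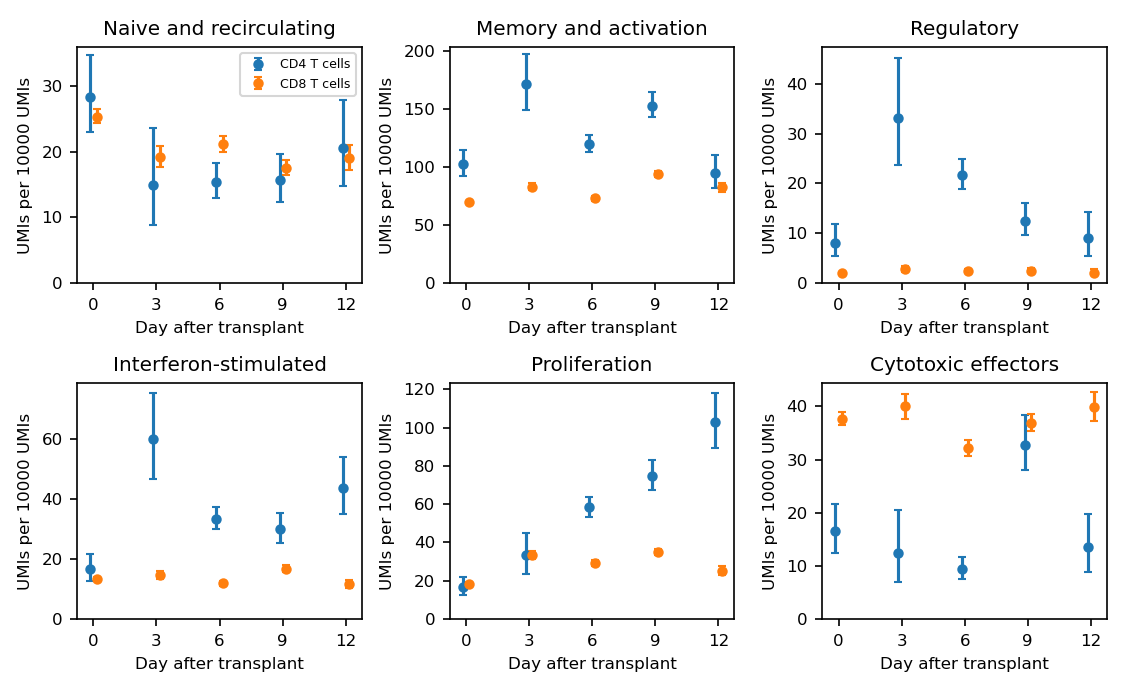
Summed UMIs per 10000 UMIs of 6 gene lists by day after transplant, with 1 point per library for CD4 and CD8 T cells and bars for 95% Poisson intervals. In CD4 T cells interferon-stimulated genes go from 16.6 at day 0 to 30.0 to 59.7 later and proliferation genes from 16.9 to 103. Without the 5 cells rich in cell cycle UMIs, proliferation genes stand at 24.9, 35.1 and 21.6 at days 6, 9 and 12. In CD8 T cells they stand at 18.3 to 35.0. Cytotoxic effector genes in CD4 T cells are below those of CD8 T cells in all 5 libraries. *Ifi27l2a* gives 17, 32, 151, 67 and 51 of the 55, 72, 300, 149 and 87 interferon-stimulated UMIs of CD4 T cells in the order of days.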

How the data were processed

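The authors deposited whole-number UMI counts for every gene in all barcodes, unfiltered, made with Cell Ranger on mm10 (6000 expected cells) from 10x Genomics 3′ v2 libraries. Depth was 33425695 to 43554233 UMIs per library. Cells were chosen by the rule of the report. The cell rule, gene lists and tests were chosen with earlier results of these data known. Counts were summed per class and library, genes with low counts were removed (filterByExpr), and edgeR 4.0.16 (TMM, quasi-likelihood test, Benjamini-Hochberg adjustment) compared CD4 with CD8 T cells with the library as a block, leaving 4 residual degrees of freedom. On simulated counts for this comparison, 94.9% of 175 genes changed 4-fold were called among 1384 tested, with 4 unchanged genes called. The mice are the replicates. DESeq2 1.42.0 was an alternative. Named genes were the class genes and *Trac*, the 10 largest differences in each direction, the 5 largest per day, the 10 most abundant, leading list members and a fixed set of T cell genes; a few named beyond these (*Itgal*, *Cd5*, *Fyn*, *Ppp1r15a*, *Psmb9*, *Stmn1* and the variable genes among them) were chosen after their values were seen. Intervals were exact binomial (Clopper-Pearson) or Poisson. Scrublet (scanpy 1.11.5) called 0 to 2.52% of barcodes, under 0.5% in 4 libraries, and no CD4 T cell. It was therefore used in alternatives only (its calls, or its 5% highest scores, left out), and doublets were kept unless stated. Some items are not reported here.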

Additional observations from a re-analysis of the deposited data

How the results depend on the processing

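Limits were the number of cells and UMIs: 68 cells, 58 with 1 *Cd4* UMI, and single mice per day. The 20 largest differences between CD4 and CD8 T cells kept their direction in all 268 values from 15 other fits and passed the threshold in 258. The other 10 concerned *Cd74* and *Cybb* (without the library block or without day 6), *Ltf* and *Dnajc15* (thinned) and *Chil3*, *Camp*, *Ltf* and *Ngp* (without neutrophil-rich barcodes). The fits scaled to total UMIs, without the 5% highest Scrublet scores and without neutrophil-rich barcodes, and the shares so computed, were chosen after seeing the data.

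Genes higher in CD4 T cells numbered 47 and lower 128. Higher genes numbered 31 with upper-quartile scaling, 30 with DESeq2, 31 with no filter (lower 244), 167 when scaled to total UMIs (lower 52), and 80 without neutrophil-rich barcodes. Thinned to 1000 UMIs, 53 of 432 genes were higher and 48 lower, which turns the balance. Leaving out 1 library gave 32 to 56 higher and 104 to 141 lower. The lowest counts were those without day 6, which has the most CD4 T cells. Without the replicate block of the library there were 48 and 126. These alternatives re-called 66 (thinned) to 168 (Scrublet) of the 175 genes. The cause was not tested.

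With at least 2 *Cd4* UMIs the shares of all barcodes in the order of days were 0.016, 0.0205, 0.0993, 0.0288 and 0%, and of CD4 plus CD8 T cells 0.28, 1.28, 4.05, 1.42 and 0%. With barcodes thinned before the rule the share of all barcodes was 0.136% at day 0, 0% at day 3, 0.139% at day 6 and 0.122% at day 9, and that of CD4 plus CD8 T cells at day 3 was 0%, since fewer UMIs find less *Cd4*. Without neutrophil-rich barcodes, which also shrinks the denominator, the shares were 0.452, 0.244, 0.639, 0.548 and 0.483%. *Ccr7* was seen in 6.06% of thinned cells.

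Genes past 2-fold against day 0, for days 3, 6, 9 and 12, numbered 273, 82, 126 and 239 with a pseudocount of 1. With a level of at least 0.5 they numbered 1398, 727, 804 and 1215, and with at least 2 they numbered 165, 57, 78 and 147. Thinned, they numbered 1428, 474 and 535 at days 3, 6 and 9. The comparisons of *Ccr7* and *Foxp3* detected against undetected cells were not run.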
